A study of Homo sapiens with 12 samples.

Results

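Paclitaxel-treated and untreated H460 cells were compared on the 2 arrays, of 12 in a drug series, whose titles name paclitaxel. H460 is an established human lung cancer line. Both arrays carried RNA of cells given 5 nM paclitaxel for 24 h in channel 1, and RNA of untreated H460 cells in channel 2. For comparison, cytarabine at 0.2 µM (a nucleoside that stops DNA synthesis), cisplatin at 5 µM (a DNA crosslinker) and cytochalasin D at 0.2 µM (which caps actin filaments) had 2 arrays each in the same layout, also at 24 h. The other 4 arrays held 5-fluorouracil (5-FU, 1 µM, 24 h), 2 of them with the channels exchanged, and served here for the direction of the ratio and for a channel term. Neither separate cultures nor separate untreated RNA are stated in the labels, so p-values measure the spread between these arrays, which may be technical.

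Paclitaxel binds beta-tubulin inside the microtubule and keeps the polymer from coming apart. A spindle built from such microtubules does not satisfy the mitotic checkpoint, and dividing cells are held in mitosis or leave it with missegregated chromosomes. Tubulin genes are known for a feedback in which free tubulin dimers trigger the decay of their own messenger RNA.

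The deposited values are log ratios, taken here as log2 since their base is not stated, and the numerator is not stated either. The likely direction, treated over untreated, is the sign that makes CDKN1A and MDM2, genes that DNA damage induces, positive in 5-FU (2.49 and 1.48). Should the numerator be the other channel, every sign below turns. Values were centred on each array's median and averaged over the probes of a gene, and each unnamed probe counted as a feature by itself. The paclitaxel arrays held 7477 and 7473 values, with 8.48 and 8.53% of probes missing, and 6974 features (4925 of them named genes) had a value on both. A further 308 features were measured on 1 of these arrays and 457 on neither. A ratio within an array carries no level, so marker genes can show only whether they moved, not which cells were present. Fewer cells of a kind and less RNA per cell cannot be told apart.

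With paclitaxel more features fell than rose, and the falls were larger. The replicates' values, across features that are not independent replicates, had a Pearson correlation of 0.719 and a Spearman correlation of 0.537, and 68.8% of features had the same sign on both arrays. Replicate 1 ranged from −2.27 to 1.38 and replicate 2 from −2.30 to 0.87. The mean of the arrays was below −1 in 172 features and above 1 in 1, the gene CITED2. By limma's moderated test at an adjusted p under 0.05, 151 features rose (2.17% of 6974) and 609 fell (8.73%), 760 in all (10.9%). The median log2 ratio was 0.36 among the rises and −0.60 among the falls. Among the rises, 130 were smaller than 0.5, and among the falls, 245.

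**Figure D1:**
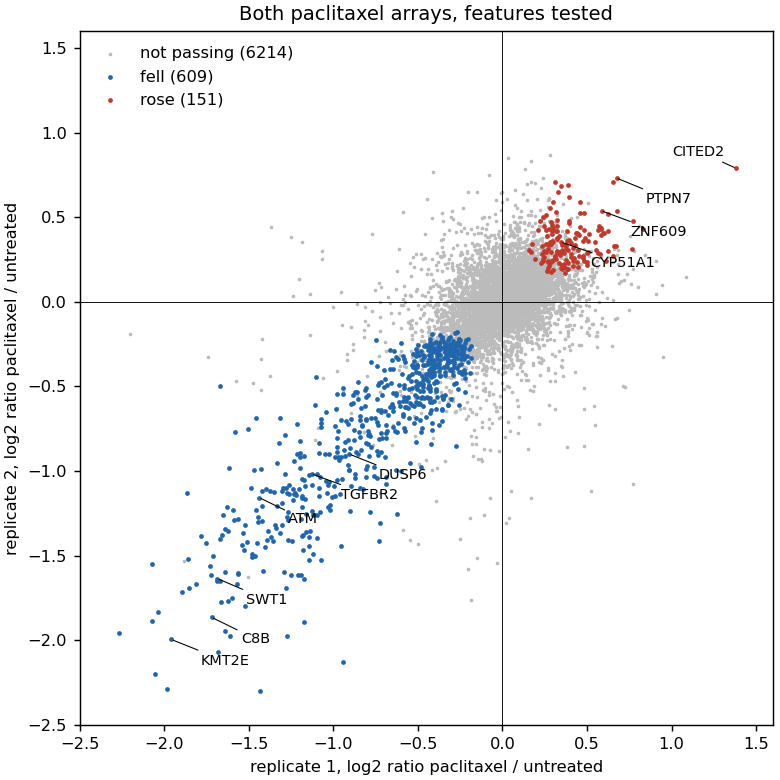
Each point is 1 of the 6974 features, with its log2 ratio of paclitaxel over untreated on replicate 1 (horizontal) and replicate 2 (vertical); red points rose and blue points fell by limma's test, grey points did not pass. The 609 falls stretch along the diagonal to below −2, while the 151 rises lie close to 0 apart from CITED2.

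The treated RNA was always in channel 1, so a difference between the channels can add to each ratio. With a channel term, which only the 5-FU arrays can measure, 4852 features could be tested, of which 96 rose (1.98%) and 175 fell (3.61%), 271 in all (5.59%). On the same 4852 features the fit without the term called 426 (8.78%), 108 rises and 318 falls. The share of calls that were falls was 80.1% over all features, 74.6% over these features without the term and 64.6% with it. Of the 108 rises testable with that term 37 were still called, and of the 318 testable falls 132 were still called and 3 were called in the opposite direction. These 3, named after their values were seen, were MAPK6 (−0.48, and 1.28 with the term), PRKCA, protein kinase C alpha (−0.55 and 1.05), and 1 unnamed probe (−0.24 and 0.32). For MAPK6 the term rested on only 2 5-FU values. Leaving out paclitaxel replicate 1 gave 276 calls (15 rises), and leaving out replicate 2 gave 333 (47 rises); leaving out either cytochalasin D array gave 93 rises.

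Falls were most frequent among features that the 5-FU arrays did not measure. Of the 1044 features with no 5-FU value, 17.4% fell and 96 were below −1. Of the 3632 features measured on all 4 of the 5-FU arrays, 5.84% fell and 22 were below −1. Rises made up 2.01 and 2.15% of the same features. Missing values are the one sign of weak signal in these data, spot brightness was not analysed here, and its part in the falls was not tested.

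**Figure D2:**
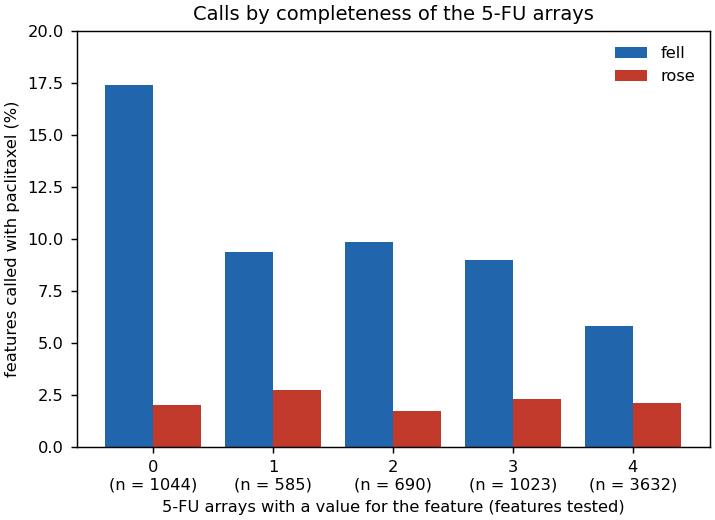
Bars give the percentage of features that fell (blue) or rose (red) with paclitaxel by limma's test, by the number of 5-FU arrays that hold a value for the feature (horizontal; the number of features tested stands under each bar). The share that fell goes from 17.4% with no 5-FU value to 5.84% with 4, and the share that rose stays between 1.74 and 2.74%.

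The named genes with the largest falls held very different functions. KMT2E, a chromatin protein related to the histone methyltransferases, read −1.96 and −2.00 on the paclitaxel arrays (−1.98 ± 0.07, SE, n = 2, adjusted p = 0.000136), 3.94-fold lower. Each SE rests on the spread within all 4 drugs of the fit, not within paclitaxel alone. TKTL1, a transketolase-like protein, read −2.04 and −1.83 (−1.94 ± 0.08, adjusted p = 0.000148). MXD1, a MAX partner that opposes MYC, had the lowest mean, with −1.99 and −2.29 (−2.14 ± 0.22, adjusted p = 0.00296). Each of these genes was low on both arrays. The others of the 10 largest falls, with means from −1.88 to −1.77, were MMP13 (collagenase 3), CCSAP (a spindle-associated protein), CABS1, the chemokine XCL1, the Fc receptor FCGR2A, the complement component C8B and CEP63, a centrosome protein.

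The other 3 drugs, which were not tested against untreated RNA here, read below 0 for these 10 genes on every array that held a value, though CCSAP had no value with cytarabine. KMT2E read −2.51 and −2.49 with cytarabine, −1.63 and −1.54 with cisplatin and −1.57 and −1.80 with cytochalasin D. CEP63 read −1.85 and −1.69 with paclitaxel, with means of −2.65, −1.79 and −1.82 for cytarabine, cisplatin and cytochalasin D. For CEP63 the ratio with paclitaxel lay above the mean of the other drugs by 0.07 to 0.55 (95% interval), but that difference did not pass over all features. Of the 10, only C8B had the 5-FU values that the channel term needs, and it read −2.30 with that term (adjusted p = 0.000947). MXD1 and CCSAP lost their calls without paclitaxel replicate 2, when replicate 1 alone read −1.99 and −1.43.

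Of the falls that passed both with and without the channel term, the largest after C8B was ADAM12, a membrane metalloprotease, with −1.66 and −1.77 (−1.72 ± 0.09; −1.71 with the channel term, adjusted p = 0.000669). CPVL, a carboxypeptidase, read −1.60 and −1.75 (−1.68 ± 0.10; −1.63 with the term). SWT1, an RNA endonuclease homologue, read −1.69 and −1.64 (−1.66 ± 0.06; −1.86 with the term, adjusted p = 7.23e-05). The remaining 6 named genes were PZP (a protease inhibitor of plasma), SLA (a Src-like adaptor), ADH4 (an alcohol dehydrogenase of liver), CYP2B6 (a cytochrome P450), MED19 (a Mediator subunit) and GNA15 (a G protein alpha subunit), with means from −1.59 to −1.53. Both arrays were negative for all of them, but not equally so for MED19 (−0.94 and −2.13) and GNA15 (−1.17 and −1.89), which lost their calls without replicate 2. MED19 also lost it without either cisplatin array, which leaves the ratio as it is.

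The rises were smaller. CITED2, a transcriptional coregulator that competes with HIF1A for its coactivators, read 1.38 and 0.79 (1.08 ± 0.20, adjusted p = 0.0325), 2.12-fold higher, and 1.02 with the channel term. It was above 0 on both arrays, but each array alone did not pass. Cisplatin gave it 1.96 on its 1 array with a value, cytochalasin D 0.35 and −0.22, and cytarabine had none. PTPN7, a tyrosine phosphatase that acts on MAP kinases, read 0.68 and 0.73 (0.70 ± 0.11, adjusted p = 0.0103) with paclitaxel and 0.64 and 0.98 with cytarabine. AUH, an enzyme of leucine breakdown that also binds RNA, read 0.65 and 0.71 (0.68 ± 0.12, adjusted p = 0.0139), beside −0.28 and 0.25 with cytarabine, −0.40 and −0.22 with cisplatin and 0.04 and 0.07 with cytochalasin D. AUH was thus highest on the paclitaxel arrays, with an interval of 0.46 to 1.09 for the difference from the mean of the other drugs, but that difference did not pass over all features either.

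ZNF609, a zinc finger protein, was the 1 rise among the named genes that kept its call under every alternative counted. The fit of probes taken singly was left out of that count. ZNF609 read 0.59 and 0.54 (0.56 ± 0.06, adjusted p = 0.00146), and 0.50 with the channel term (adjusted p = 0.00396). The other large rises, from 0.54 to 0.63, were TCEA2 (an elongation factor), STUM, USF3, FASTK (a mitochondrial protein that acts on RNA), TRAF5 (an adaptor of TNF receptors) and CARTPT (a neuropeptide precursor). CARD10 (a scaffold of NF-kB signalling), KLF16, RARRES1, MGAT1 (an enzyme of N-glycan processing) and TM7SF2 (a sterol reductase) rose by 0.50 to 0.51, and passed with the channel term. All of these lost their calls without paclitaxel replicate 1, when replicate 2 alone read from 0.31 (CARTPT) to 0.69 (TRAF5).

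Tubulins are the protein that paclitaxel binds, and 5 of 18 listed tubulin genes were on the array. TUBB, a beta-tubulin found in most cells, read 0.26 and 0.30 (0.28 ± 0.06, adjusted p = 0.0384). TUBA4A, an alpha-tubulin, read 0.42 and 0.32 (0.37 ± 0.08, adjusted p = 0.0377). TUBB2A read 0.27 and 0.60 (0.44 ± 0.12), which did not pass (adjusted p = 0.0729). TUBB4A, the beta-tubulin of the nervous system, fell, with −0.42 and −0.27 (−0.35 ± 0.06, adjusted p = 0.0118), and TUBG1, which nucleates microtubules, read 0.17 and −0.10 and did not pass. The median of the 5 was 0.28, beside 0.01 over all features tested. Closely related tubulin transcripts may bind one another's probes.

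The tubulin ratios of the other drugs lay lower in part. TUBA4A read −0.07 and −0.38 with cytarabine, 0.23 and 0.13 with cisplatin and −0.59 and −0.48 with cytochalasin D. TUBB2A was above 0 with cytarabine (0.17 and 0.46) and cisplatin (0.34 and 0.32) as well, and read −0.28 and 0.12 with cytochalasin D. TUBB4A read −0.14 and −0.18, −0.51 and −0.52, and −0.09 and −0.10 with these drugs, so it was lowest with cisplatin. Paclitaxel minus cytochalasin D was 0.90 ± 0.12 for TUBA4A (adjusted p = 0.0622) and 0.46 ± 0.09 for TUBB (adjusted p = 0.166), so neither difference passed. With the channel term TUBB read 0.14 (adjusted p = 0.417), TUBA4A 0.32 (adjusted p = 0.0995) and TUBB4A −0.44 (adjusted p = 0.142), and none of them passed, while TUBB2A read 0.63 and passed (adjusted p = 0.0342). The TUBB and TUBA4A calls ended without either array of paclitaxel, and also without either array of cisplatin or cytochalasin D, when the ratio keeps its value and only its error changes.

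Among 19 tested regulators of microtubules and of tubulin folding, 1 rose and 1 fell, and the median was −0.03. Calls made up a near share of all features (10.9%). TTL, which returns tyrosine to the end of alpha-tubulin, read 0.29 and 0.42 (0.36 ± 0.08, adjusted p = 0.0324). MAP4, a microtubule-binding protein of non-neural cells, read −0.49 and −0.42 (−0.46 ± 0.07, adjusted p = 0.00663). TTL was higher still with cytarabine (0.67 and 0.77) and below 0 with cisplatin and cytochalasin D, and MAP4 was lower with cytarabine (−0.81 and −0.87). STMN1, which takes up free tubulin dimers, read 0.06 and −0.15 and did not pass.

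**Figure D3:**
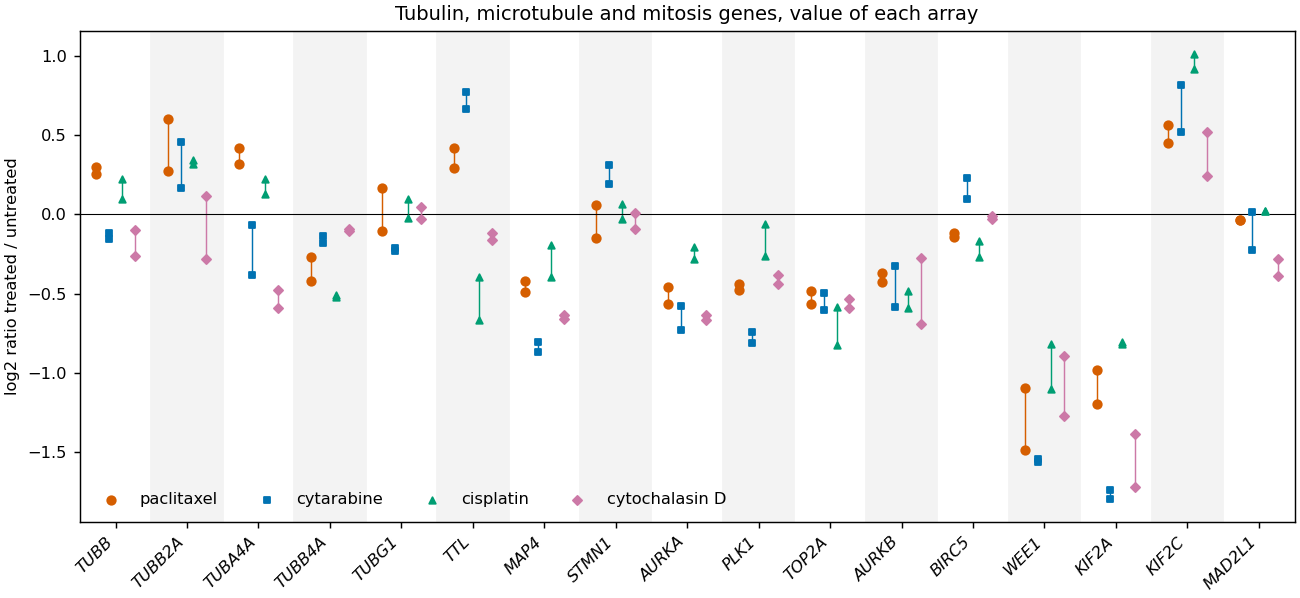
Each symbol is the log2 ratio of treated over untreated on 1 array, for tubulin, microtubule and mitosis genes (horizontal); lines join the 2 arrays of a drug. The paclitaxel arrays are above 0 for TUBB, TUBB2A, TUBA4A, TTL and KIF2C and below −0.9 for WEE1 and KIF2A, where the other drugs are low as well.

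Cells held in mitosis carry high levels of mitotic transcripts, and the lists of G2 and mitosis genes show how these moved. None of the 20 tested regulators of G2 and mitosis rose and 5 fell, with a median of −0.14. Over all features 2.17% rose and 8.73% fell, so the lack of a rise among 20 says little about these genes. AURKA, the kinase of spindle poles, read −0.46 and −0.57 (−0.51 ± 0.06, adjusted p = 0.00327). PLK1, a kinase of mitotic entry and exit, read −0.48 and −0.44 (−0.46 ± 0.07, adjusted p = 0.0063). TOP2A, the topoisomerase that untangles sister chromatids, read −0.48 and −0.57 (−0.53 ± 0.07, adjusted p = 0.00559). These 3 genes were low on both arrays, and all passed with the channel term (−0.68, −0.42 and −0.79).

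WEE1, the kinase that holds CDK1 inactive, fell the most in this list, with −1.49 and −1.10 (−1.29 ± 0.13, adjusted p = 0.0014), and had no 5-FU value. BUB1B, a checkpoint kinase named here after its value was seen, read −0.35 and −0.39 (adjusted p = 0.0206), beside −0.05 on the 1 cytarabine array with a value, −0.10 and 0.06 with cisplatin and −0.29 and −0.34 with cytochalasin D. AURKB (−0.43 and −0.37, adjusted p = 0.0663), BIRC5 (−0.14 and −0.12) and MAD2L1 (−0.04 and −0.03), which act at kinetochores, did not pass. When the channel term was added, MAD2L1 read 0.68 and passed (adjusted p = 0.0132). For this gene the term rested on only 2 5-FU values, −0.33 with treated RNA in channel 2 and −1.76 in channel 1. CDC20 and KIF11, the checkpoint's target and a spindle motor, had a value on 1 of the paclitaxel arrays (−0.64 and −0.68), and CCNB1 and BUB1 were not on the array.

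AURKA, PLK1 and TOP2A read below 0 on the arrays of the other drugs too. AURKA averaged −0.65 with cytarabine, −0.24 with cisplatin and −0.65 with cytochalasin D, and PLK1 −0.78, −0.16 and −0.41. The 95% interval of paclitaxel minus the mean of the other drugs was −0.17 to 0.17 for AURKA, −0.19 to 0.17 for PLK1 and −0.11 to 0.28 for TOP2A. Leaving out paclitaxel replicate 2 ended the calls of all 3, when replicate 1 alone read the values above, and leaving out replicate 1 ended those of PLK1 and TOP2A.

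Among 13 mitotic kinesins and spindle genes, 1 rose and 2 fell, with a median of −0.08, beside 10.9% of all features called. KIF2C, a kinesin that takes microtubules apart at kinetochores, read 0.57 and 0.45 (0.51 ± 0.10, adjusted p = 0.0191), and its relative KIF2A read −1.20 and −0.98 (−1.09 ± 0.09, adjusted p = 0.000723). TACC1, a partner of microtubule polymerases, read −1.18 and −1.64 (−1.41 ± 0.20, adjusted p = 0.00594). KIF2C was above 0 and KIF2A and TACC1 below it on all 8 arrays of the 4 drugs. Neither kinesin passed with the channel term (0.47, adjusted p = 0.0763, and −0.74, adjusted p = 0.0575).

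Of 34 genes of G1, S phase and replication, 1 rose and 2 fell, with a median of −0.03. That is near the share of calls over all features (10.9%). CCNE1, the cyclin of the G1/S switch, read −0.78 and −0.36 (−0.57 ± 0.10, adjusted p = 0.0134) and PRIM1, a primase subunit, −0.52 and −0.55 (−0.53 ± 0.07, adjusted p = 0.00399). RFC2, a subunit of the clamp loader, read 0.30 and 0.59 (0.45 ± 0.08, adjusted p = 0.0139). None of these passed with the channel term.

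Of 4 stress and DNA damage response genes named by the rule and described here, SESN1, a stress-induced inhibitor of mTOR signalling, rose (0.25 and 0.45, adjusted p = 0.0409) and CCNG1, a cyclin, fell (−0.47 and −0.46, adjusted p = 0.0063). With the channel term CCNG1 read −0.24 and did not pass (adjusted p = 0.155). SESN1 could not be tested with that term, and lost its call with scaled arrays and with only the paclitaxel arrays in the fit. CDKN1A and MDM2, which DNA damage induces, did not pass. CDKN1A, the inhibitor that halts the cell cycle, read 0.24 and 0.17 (0.21 ± 0.21, adjusted p = 0.581), beside 3.12 and 4.20 with cisplatin. Its error is shared with the other drugs, and the cisplatin arrays lay the furthest apart. That error therefore does not measure the spread of the paclitaxel arrays, which read alike. MDM2, a ubiquitin ligase, read −0.22 and −0.12 (adjusted p = 0.317), beside 2.75 and 2.56 with cisplatin. With cytarabine and cytochalasin D both genes read between −0.39 and 0.21.

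Apoptosis genes had 1 call: of 18 tested, BCL2 fell and none rose, with a median of 0.00, beside 10.9% of all features called. BCL2, which blocks release of cytochrome c, read −0.79 and −0.76 (−0.78 ± 0.09, adjusted p = 0.00532). BCL2L1, its relative, read 0.23 and −0.12 and did not pass, and MCL1 was not on the array. DFFA, an inhibitor of the nuclease that cuts DNA in apoptosis, read 0.07 and passed with the channel term alone (0.54, adjusted p = 0.0415). BCL2 had no 5-FU value, and its mean was −0.58 with cisplatin and −0.64 with cytochalasin D.

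Any list's count of calls stands beside 2.17% of all features that rose and 8.73% that fell. Over all 25 gene lists, 17.7% of the tested members were called, beside 10.9% of all features. Over the features that the channel term could test, these shares were 16.1 and 8.78% without the term and 8.91 and 5.59% with it. The fit of probes taken singly, in which 2 of the named genes lost their calls, is not counted among the alternatives here. C8B, DUSP6, ATM, ABCB4, ABCC4 and TGFBR2 kept their call under every alternative counted, the channel term included. KMT2E, WEE1 and ITGB3 kept theirs in the alternatives run, but the channel term could not be fitted for them. With these, 27 of the 94 genes named by rule and called kept their call under every alternative counted and run. Leaving out paclitaxel replicate 1 ended 53 of these calls, leaving out replicate 2 ended 55, and the channel term ended 32 and could not be fitted for 29. Without 1 paclitaxel array the ratio of a gene is the value of the other, given with the gene.

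**Figure D4:**
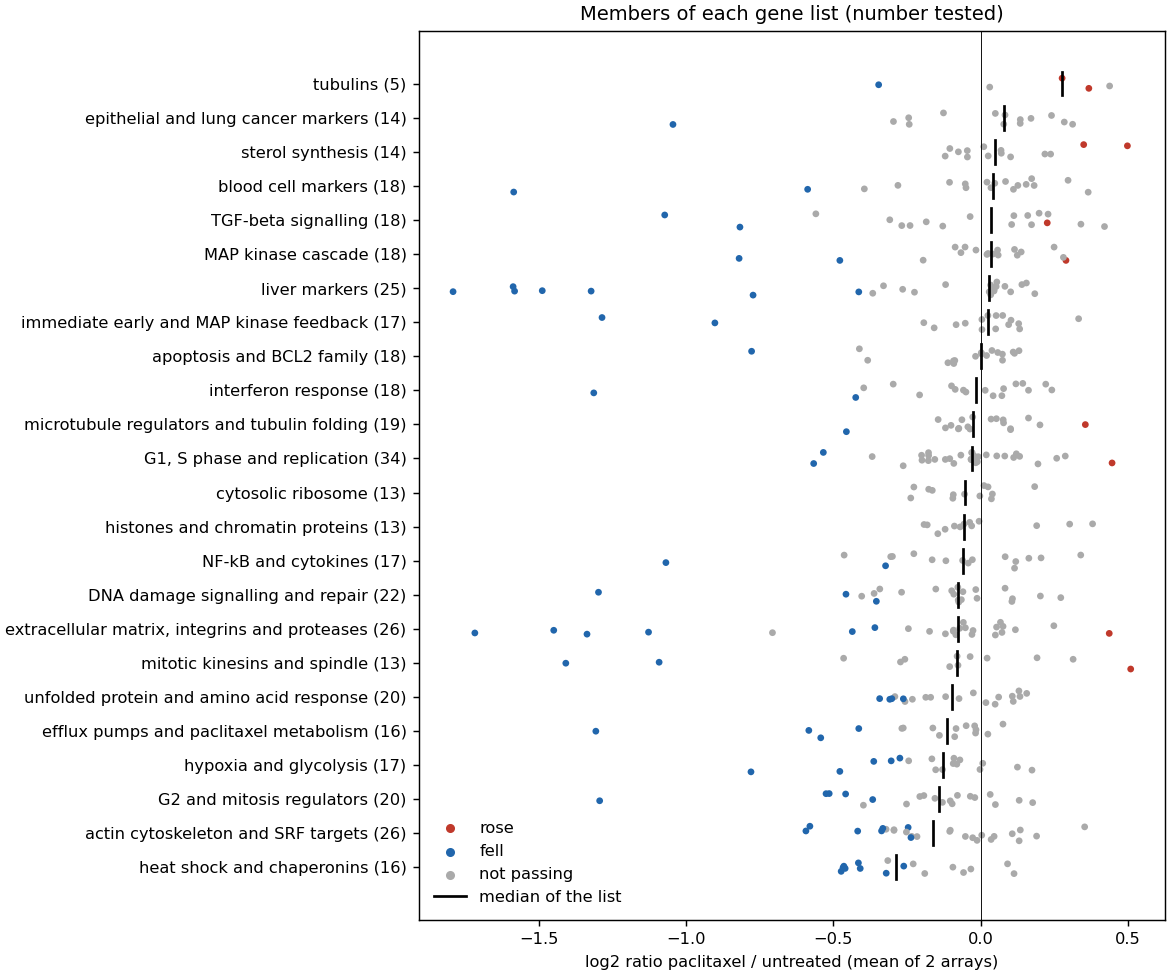
Each point is the mean log2 ratio of 1 gene over the 2 paclitaxel arrays, by gene list (vertical, with the number tested); red points rose, blue points fell and grey points did not pass by limma's test, and black bars are list medians. Medians go from −0.29 for heat shock and chaperonins to 0.28 for tubulins, and single members of many lists lie below −1.

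Heat shock proteins fold other proteins, and the chaperonin and prefoldin complexes fold new tubulin and actin. Of 16 tested, 8 fell and none rose, with a median of −0.29. HSPA4 (an HSP110 family chaperone) read −0.44 and −0.51, HSP90AB1 −0.44 and −0.50, HSPA8 −0.51 and −0.42, and HSPD1, the mitochondrial chaperonin, −0.46 and −0.46, and HSPA6 is described with the other drugs. CCT5 (−0.38 and −0.26), PFDN4 (−0.40 and −0.41) and VBP1 (−0.29 and −0.23), subunits of the tubulin and actin folding complexes named here after their values were seen, fell as well. HSPA1B, of the stress-inducible HSP70 pair, read 0.18 and 0.05 and did not pass. With the channel term only CCT5 of the 13 testable members passed (−0.43, adjusted p = 0.0115), and the median was −0.10.

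The unfolded protein and amino acid response list had 4 falls and no rise among 20 genes, with a median of −0.10. HSP90B1 (−0.38 and −0.30) and CALR (−0.30 and −0.31), chaperones of the endoplasmic reticulum, fell, as did the tRNA synthetase GARS1 (−0.34 and −0.26). NARS1, another synthetase named after its value was seen, read −0.25 and −0.28. None of these 4 passed with the channel term, but AARS1 (0.16, and 0.85 with the term), ASNS (−0.26 and −0.76) and SLC1A5 (−0.07 and −0.54), chosen after their values were seen, passed with it alone. None of 13 genes of the cytosolic ribosome passed, and the largest deviation, RPS3A, read −0.31 and −0.16 (adjusted p = 0.0664).

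Genes of the actin cytoskeleton and targets of its transcription factor SRF had 7 falls and no rise among 26, with a median of −0.16. ACTR3, a subunit of the Arp2/3 complex that branches actin, read −0.57 and −0.59 (−0.58 ± 0.07, adjusted p = 0.00399), and ACTG1, gamma-actin, −0.40 and −0.43 (−0.42 ± 0.06, adjusted p = 0.0061). GSN, the filament-severing gelsolin, read −0.49 and −0.70 (adjusted p = 0.0144), and ACTB −0.21 and −0.23 without passing (adjusted p = 0.0768). CCN1 and CCN2 are described with the other drugs, and ARPC5 (−0.26 and −0.23) and MYL12A (−0.32 and −0.36) were chosen after their values were seen. None of the 22 members testable with the channel term passed, and there the median was −0.03.

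Of 14 genes of sterol synthesis, 2 rose and none fell, with a median of 0.05. CYP51A1, the lanosterol demethylase, read 0.35 and 0.35 (0.35 ± 0.05, adjusted p = 0.00753), 1.27-fold higher. TM7SF2, which acts on the next intermediate, read 0.59 and 0.41 (0.50 ± 0.07, adjusted p = 0.00482). Both passed with the channel term (0.67, adjusted p = 0.00548, and 0.41, adjusted p = 0.0163). LSS, the enzyme before CYP51A1, read 0.22 and 0.25 (adjusted p = 0.0716), and SREBF2, the transcription factor of the pathway, 0.17 and 0.27 (adjusted p = 0.102), and neither passed. Without replicate 1 neither call held, and CYP51A1 lost its call without replicate 2 too, though each array alone read 0.35.

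The list of efflux pumps and paclitaxel metabolism took in ABC family genes and cytochromes P450, not all of which handle paclitaxel. Among its 16 tested genes 4 fell and none rose, with a median of −0.11. ABCB1, the P-glycoprotein that expels paclitaxel, read 0.04 and 0.00 (0.02 ± 0.05, adjusted p = 0.804). Its neighbour in the family, the phospholipid transporter ABCB4, read −1.12 and −1.49 (−1.31 ± 0.15, adjusted p = 0.00224). Only 1 of the 2 probes of ABCB4 had values on the paclitaxel arrays. ABCC4, an exporter of organic anions and cyclic nucleotides, read −0.63 and −0.54 (−0.58 ± 0.06, adjusted p = 0.0014). CYP2C8, which hydroxylates paclitaxel in liver, read −0.41 and −0.42 (adjusted p = 0.016), and ABCE1, a ribosome recycling factor of the same superfamily, −0.47 and −0.62 (adjusted p = 0.00624). With the channel term ABCB4 (−1.19), ABCC4 (−0.80) and CYP2C8 (−0.53) passed, and ABCE1 could not be tested.

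The signalling lists had 2 or 3 calls each among 17 or 18 genes tested, beside 10.9% of all features. DUSP6, the phosphatase that ERK induces and that shuts ERK off, read −0.91 and −0.90 (−0.90 ± 0.08, adjusted p = 0.000936), and −1.17 with the channel term (adjusted p = 0.00227). EREG, a ligand of the EGF receptor, read −1.19 and −1.39 (adjusted p = 0.00469), and these 2 were the falls among 17 immediate early and feedback genes. Of 18 MAP kinase genes, MAPKAPK5 (−0.74 and −0.90) and MAPK6 (−0.47 and −0.49) fell and MAP2K5, the activator of ERK5, rose (0.29 and 0.29). MAPK6 went to 1.28 with the channel term and passed in that direction, so its direction rests on how the channels are treated. That term rested on only 2 5-FU values, 2.53 with treated RNA in channel 2 and −0.98 in channel 1.

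Of 18 TGF-beta genes, the receptors TGFBR2 (−1.13 and −1.02, adjusted p = 0.00102) and ACVR1 (−0.78 and −0.85, adjusted p = 0.000496) fell. SKI, a repressor of SMADs chosen after its value was seen, rose (0.22 and 0.23, adjusted p = 0.0484). Both receptors read below 0 on all 8 arrays of the 4 drugs. Of 17 NF-kB and cytokine genes, NFKB1, the p105 precursor (−0.99 and −1.15, adjusted p = 0.0117), and CXCL8, interleukin-8 (−0.40 and −0.24, adjusted p = 0.038), fell. Neither passed with the channel term, where CXCL8 read 0.13. Of 18 interferon genes IRF9 (−1.42 and −1.21) and STAT3 (−0.41 and −0.44) fell, but the probes of STAT3 disagreed, at 0.04 and 0.15 for one and −0.86 and −1.03 for the other.

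ATM, the kinase that senses DNA breaks, read −1.44 and −1.16 (−1.30 ± 0.08, adjusted p = 0.000295) and −1.18 with the channel term (adjusted p = 0.00197). MRE11, of the break-sensing complex (−0.36 and −0.56), and PMS2, of mismatch repair and chosen after its value was seen (−0.45 and −0.26), were the other falls among 22 repair genes. Of all features 8.73% fell. ATM averaged −1.61 with cytarabine, −0.78 with cisplatin and −1.30 with cytochalasin D. None of 13 histone and chromatin genes passed, and H1-10, the largest deviation, read 0.44 and 0.32 (adjusted p = 0.0894), while HDAC1, a histone deacetylase, read −0.15 and passed with the channel term alone (−0.46, adjusted p = 0.036). SMAD2 (−0.24, and −0.43 with the term) and MMP9 (−0.71 and −1.14), members of the TGF-beta and protease lists, also passed with the term alone. These 4 genes, DFFA among them, were picked with their values in view.

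Of 26 matrix, integrin and protease genes, 6 fell and 1 rose. The integrin subunit ITGB3 read −1.53 and −1.37 (−1.45 ± 0.07, adjusted p = 0.000156), TIMP3, an inhibitor of metalloproteases, −1.14 and −1.53 (adjusted p = 0.00413), and ADAM9, a membrane protease, −1.17 and −1.09 (adjusted p = 0.000592). FN1 (−0.46 and −0.26), COL5A2 (−0.45 and −0.43) and the riser MMP1 (0.39 and 0.48) were picked with their values in view. Of 17 hypoxia and glycolysis genes 5 fell and none rose, among them PDK1, which restrains pyruvate entry into mitochondria (−0.83 and −0.73, adjusted p = 0.00495), HIF1A (−0.44 and −0.28), ADM (−0.62 and −0.34), PGAM1 (−0.31 and −0.30) and, chosen after its value was seen, PGK1 (−0.30 and −0.25). PDK1 passed with the channel term too (−0.90, adjusted p = 0.00425), while HIF1A read 0.12 and did not.

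Marker lists of cell types were read for movement alone. Of 14 epithelial and lung cancer markers 1 fell and none rose, with a median of 0.08. DSP, the desmosome protein desmoplakin, fell on both arrays (mean −1.04 ± 0.15, adjusted p = 0.0112). The keratin KRT18 read −0.11 and −0.48 without passing (adjusted p = 0.105). CDH1 (0.16 and 0.47) and CLDN7 (0.37 and 0.20) read above 0 and did not pass either. Of 25 liver markers 7 fell and none rose, but the median was 0.03, so the falls were those of single members. They were C8B, PZP, ADH4 and CYP2C8 above, UGT1A10 (−1.62 and −1.36, adjusted p = 0.000156), and APOB and ITIH3, chosen after their values were seen. The UGT1A genes share most of their exons, so the UGT1A10 probe may bind others of them. Of 18 blood cell markers SLA and CD74 (−0.42 and −0.76, adjusted p = 0.0135) fell and none rose, with a median of 0.04. CSF1R (−0.51 and −0.28) and LCP1 (0.29 and 0.44) did not pass. The liver list, of genes that a lung line is not known for, held the lowest member of any list (C8B). Since all lists were chosen with earlier results of these data known, this may follow from the choice. The part of weak signal in the liver markers was not tested.

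How far these changes belonged to paclitaxel was asked by setting it against the mean of cytarabine, cisplatin and cytochalasin D. A channel effect common to these 8 arrays cancels in that difference, and so does untreated RNA if it was shared. Paclitaxel was higher in 3 of 6519 features (0.046%) and lower in 4 (0.0614%), 7 in all (0.107%), with 710 at an unadjusted p under 0.05 in limma. The median 95% interval was 0.20 to either side, and in 85.0% of features it lay within 0.5 of no difference. Of the 151 rises 144 could be compared, of which 1 differed and 103 had such an interval. Their median difference from the other drugs was 0.20, beside a median ratio of 0.36 over the 151. Since 130 of the 151 rises were themselves smaller than 0.5, such an interval does not show that the other drugs shared them. Of the 609 falls 563 could be compared, of which 3 differed and 442 had such an interval, and their median difference was −0.04. Among the 609 falls, 245 were smaller than 0.5 as well. Once the channel term was added, paclitaxel was higher in 3 of 4664 features (0.0643%) and lower in 5 (0.107%), 0.172% in all.

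CYP51A1 was the gene that rose with paclitaxel and differed from the other drugs. It read 0.35 and 0.35 with paclitaxel, 0.00 and −0.07 with cytarabine, −0.49 and −0.44 with cisplatin and −0.31 and −0.29 with cytochalasin D. The paclitaxel arrays stood above all the others, by 0.62 ± 0.06 over their mean (adjusted p = 0.0326). HSPA6, an HSP70 made under strong stress, went the other way: −0.43 and −0.40 with paclitaxel, −0.05 and 0.02 with cytarabine, 0.39 and 0.46 with cisplatin and 0.32 and 0.56 with cytochalasin D. The paclitaxel arrays stood below all others, by 0.70 ± 0.08 (adjusted p = 0.0416). The HSPA6 probe may also bind the near-identical HSPA7, and its ratio to untreated RNA read 0.00 with the channel term. The difference from the other drugs, in which a common channel effect cancels, stayed at −0.70 in that fit but had a larger error and did not pass (adjusted p = 0.529).

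The upstream windows of these genes are shown because, of the genes that differed from the mean of the other drugs, these are the ones in which both paclitaxel arrays lay outside the range of the other drugs' arrays. They are the 250 bases before the start of each gene in RefSeq on GRCh38.p14, on the gene's strand, CYP51A1 at chr7:92134478-92134727 (minus strand) and HSPA6 at chr1:161524290-161524539 (plus strand), with capitals for GAANNTTC, the core of a heat shock element.
CYP51A1: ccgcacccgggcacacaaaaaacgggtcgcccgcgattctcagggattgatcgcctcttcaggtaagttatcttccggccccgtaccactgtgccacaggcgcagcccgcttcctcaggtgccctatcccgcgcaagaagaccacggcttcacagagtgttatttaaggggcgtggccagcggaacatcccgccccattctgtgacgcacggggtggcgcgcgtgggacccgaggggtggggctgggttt
HSPA6: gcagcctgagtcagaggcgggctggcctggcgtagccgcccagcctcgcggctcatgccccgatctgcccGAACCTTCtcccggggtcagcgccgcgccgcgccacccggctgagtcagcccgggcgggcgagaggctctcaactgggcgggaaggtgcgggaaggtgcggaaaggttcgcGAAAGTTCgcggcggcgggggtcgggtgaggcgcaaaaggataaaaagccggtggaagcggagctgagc
HSPA6 held 2 such matches, 180 and 69 bases before the start, and CYP51A1 none; 5.78% of 35116 windows of that length held at least 1 on either strand. Neither window held CCAAT on either strand, which 32.0% of windows held. A match is a stretch of letters and no measure of binding.

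In the other 5 genes the paclitaxel arrays lay beside those of cytarabine, and the arrays that stood apart were those of cisplatin or cytochalasin D. CCN2, a matrix protein and target of YAP and SRF, read −0.25 and −0.42 with paclitaxel and −0.02 and −0.11 with cytarabine, but −1.23 and −1.28 with cisplatin and −1.95 and −1.96 with cytochalasin D. BRAP, a ubiquitin ligase of the RAS pathway, read −0.20 and −0.10 with paclitaxel, −0.12 and 0.11 with cytarabine, −0.94 and −0.95 with cisplatin and −1.56 and −1.55 with cytochalasin D. Paclitaxel minus the mean of the 3 was 0.76 ± 0.07 for CCN2 and 0.69 ± 0.08 for BRAP. The low arrays were those of cisplatin and cytochalasin D in both genes.

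MDM2, TNFAIP3 and RGS2 were high with cisplatin. TNFAIP3, the ubiquitin-editing brake on NF-kB, read −0.35 and −0.25 with paclitaxel and 2.00 and 2.30 with cisplatin, and RGS2, a brake on G protein signalling, −0.39 and −0.32 and 1.74 and 1.62. The differences from the mean of the 3 drugs were −1.08 ± 0.09 for TNFAIP3, −0.94 ± 0.11 for MDM2 and −0.62 ± 0.07 for RGS2. In limma no feature passed this comparison without paclitaxel replicate 1, cytarabine replicate 2 or either cytochalasin D array (527 to 752 at an unadjusted p under 0.05), and 1 to 4 passed without one of the other 4 arrays, so the list of 7 depends on each array. For CYP51A1 the difference without paclitaxel replicate 1 or 2 was 0.62 (adjusted p = 0.15) or 0.61 (adjusted p = 0.143), since its arrays read alike.

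**Figure D5:**
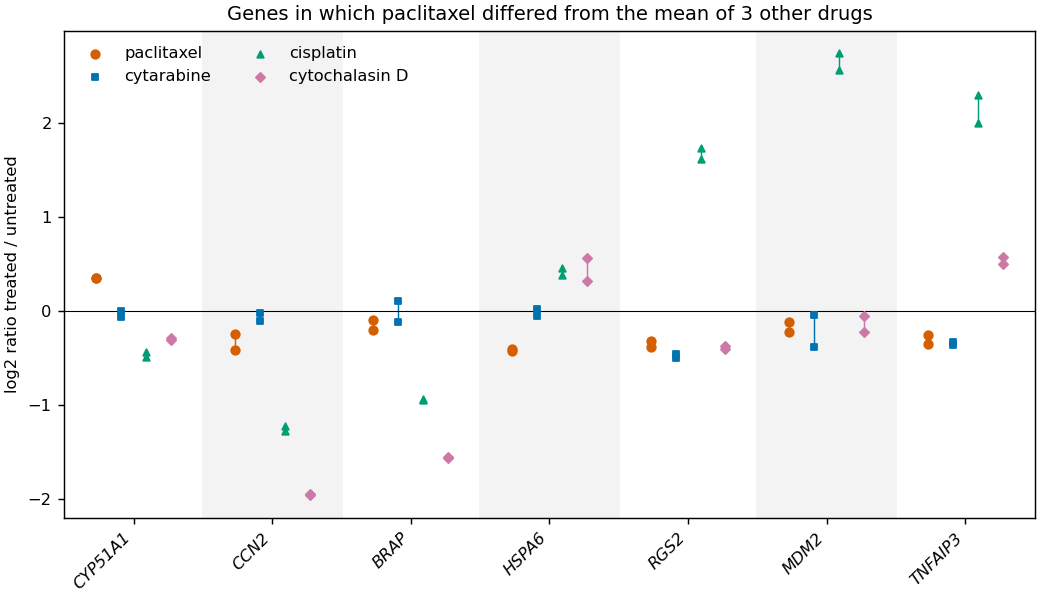
Each symbol is the log2 ratio of treated over untreated on 1 array for the 7 genes in which paclitaxel differed from the mean of the other 3 drugs; lines join the 2 arrays of a drug. The paclitaxel arrays are the highest for CYP51A1 and the lowest for HSPA6, and in the other genes they lie beside cytarabine.

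Cytochalasin D, the drug of the other filament system, gave the closest comparison by target. Paclitaxel was higher in 6 of 6855 features (0.0875%) and lower in 4 (0.0584%), 10 in all (0.146%), and with the channel term it was higher in 8 of 4798 (0.167%) and lower in 5 (0.104%), 0.271% in all. The higher genes were CCN2 (difference 1.62 ± 0.09, adjusted p = 0.00262), BRAP (1.41 ± 0.10), CCN1, the relative of CCN2 (1.19 ± 0.08), NOL4 (1.08 ± 0.10), EXO1, a DNA exonuclease (0.88 ± 0.09), and CYP51A1 (0.65 ± 0.07). CCN1 read −0.26 and −0.22 with paclitaxel and −1.39 and −1.46 with cytochalasin D, and EXO1 −0.11 and −0.22 against −0.98 and −1.11. In CCN1, NOL4 and EXO1 the cytochalasin D arrays were far below 0 and the paclitaxel arrays near it. Against untreated RNA CCN1 fell (adjusted p = 0.0348), but read 0.47 with the channel term.

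The lower features were ACTG1, HSPA6, ABCC4 and 1 probe without a gene name. ACTG1 read −0.40 and −0.43 with paclitaxel and 0.94 and 0.82 with cytochalasin D (difference −1.30 ± 0.08, adjusted p = 0.00271). ABCC4 read −0.63 and −0.54 against 0.15 and 0.22 (−0.77 ± 0.08, adjusted p = 0.0369). ACTG1 and ABCC4 thus had opposite signs under the drugs. In limma no feature passed with only the 4 arrays of these drugs or without cytochalasin D replicate 1 (834 and 553 at an unadjusted p under 0.05), and 4 to 9 passed without another single array, among them 4 without paclitaxel replicate 1 and 6 without cytochalasin D replicate 2.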

How the data were processed

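The authors deposited 1 table of log ratios between the channels, taken as log2, for 8170 probes. Not given in the sources used here are their normalization and their spot filter. The platform annotation gave 5930 probes 1 gene, 79 several and 2161 none. Probes of a gene were averaged, which left 7739 features, and the median of each array was subtracted. The fit, by limma 3.58.1 under R 4.3.3, took the 8 arrays of paclitaxel, cytarabine, cisplatin and cytochalasin D, with 1 coefficient per drug and moderated statistics, so that all 4 drugs share 1 estimate of the spread. Paclitaxel was tested against 0, against the mean of the other 3 drugs and against cytochalasin D, with Benjamini-Hochberg adjusted p under 0.05 over all features tested. Testing against 0 leaves out the spread of untreated cultures. The number of arrays limits the precision.

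Genes were named by rule: the 10 largest rises and falls that pass, the same among those that also pass with the channel term, up to 4 members per list, the 10 largest each way per comparison of drugs, and a set of tubulin, mitosis and drug-response genes. The arrays, lists and rule were chosen with earlier results of these data known. For 1 of the 25 lists the members are not reported here. Same-numbered replicates did not deviate together (correlations of −0.0532 to 0.0901), so no pairing was used. The fit was tested on simulated data.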

Additional observations from a re-analysis of the deposited data

How the results depend on the processing

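For paclitaxel against untreated the channel term gave 271 of 4852 testable features (96 rises, 175 falls), where the fit without it called 426 (108 rises, 318 falls). It called 8.91% of the testable members of the gene lists, beside 16.1% without it. That term turned CXCL8 (0.13), MAPK6 (1.28), HIF1A (0.12), HSPA6 (0.0043), CCN1 (0.47), MYL12A (0.0474) and MAD2L1 (0.68). Of these MAPK6 and MAD2L1 passed, each with only 2 5-FU values behind the term. The cause of these turns was not tested. An absolute ratio of at least 1 left 168 features (1 rise, 167 falls) against untreated, 1 (0 higher, 1 lower) against the 3 drugs and 5 (1 lower) against cytochalasin D. Scaled arrays gave 245 rises, and 19 features (11 lower) against cytochalasin D. Only the arrays compared gave 53 rises, and 0 features against cytochalasin D (834 at an unadjusted p under 0.05 in limma). For that comparison the 5-FU replicates gave 17 (8 lower), and values on all 8 arrays 17 (10 lower). The replicate block, though the numbers do not pair the arrays, gave 0 features against the 3 drugs (0 higher, 0 lower; 729 at an unadjusted p under 0.05 in limma) and 5 (1 lower) against cytochalasin D. Leaving out 1 array gave 276 to 782 features against untreated (15 to 161 rises, 261 to 621 falls). It gave 0 to 4 against the 3 drugs (0 to 2 higher, 0 to 3 lower) and 0 to 9 against cytochalasin D (0 to 6 higher, 0 to 3 lower). No centring, robust moderation and single probes kept every one of these counts within 1.5 times. With 2 arrays per drug and no spot brightness, weak signal could not be told from a small change.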
